A study of Mus musculus with 12 samples.

Results

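Mouse embryonic fibroblasts that carried HOXB13, a homeobox transcription factor, were compared after 21 days in osteogenic medium and at day 1, in 3 libraries each, 6 of the 12 libraries of the series. All cells came from mice with TVA, the receptor of avian RCAS viruses, under the β-actin promoter and with p53 deleted (β-actin-TVA, p53-/-), so the controls of this comparison lack p53 as well. They had been infected with RCAS-HOXB13, and the other 6 libraries came from cells infected with RCAS-GFP and are called vector. Vector libraries also entered the filter on low genes and the estimate of the spread, so 351 of the tested genes lay below 1 RPM in all 6 HOXB13 libraries. Cells were plated on gelatin in triplicate wells in DMEM with 5% serum. At confluence 1 plate was harvested as day 1, and the other was moved to OsteoMAX-XF, a commercial osteogenic medium, until day 21, so that day, medium and plate cannot be told apart. The study's question is what excess HOXB13 does to osteogenic differentiation, and the comparison here describes what the 21 days did to HOXB13 cells. Nothing in the labels says that the wells were separate animals or cultures, so the p-values here speak for the spread among these wells alone, and that spread may be technical. Of 55573 genes in the table, all 13516 with at least 1 RPM (reads per 1000000, below) in at least 3 of the 12 libraries were tested.

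Osteogenic media drive fibroblasts and mesenchymal stem cells along a known sequence. Cells leave the cell cycle, lay down a collagen matrix under the transcription factors Runx2 and Sp7, and then express alkaline phosphatase and the late bone matrix proteins while mineral forms. The same cells can also take up lipid, make cartilage matrix, or turn on acute-phase and chemokine genes when inflammatory pathways or glucocorticoids act on them. Acute-phase genes such as those of serum amyloid A and lipocalin are controlled in many cells by C/EBP and NF-kappaB factors, interferon-stimulated genes by STAT and IRF factors, and mitotic genes by the DREAM and MuvB complexes, which bind cell cycle homology regions and, with NF-Y, CCAAT boxes.

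The promoters of 8 genes are printed to show short motifs known for 4 of the gene lists below. They were picked because they hold the motif, so they stand for no share of their list. Each window runs from 250 bases before to 50 after the transcription start, 5′ to 3′ on the gene's strand (RefSeq, GRCm38.p6). Capitals mark the motifs named, searched on both strands, and a match describes the letters only. Acute-phase genes, all higher at day 21, come first. Capitals mark the C/EBP-like motif TTGCNNAA, which stood 99, 216 and 87 bases before the start in Saa3, Lcn2 and Steap4. In Saa3 it reads on the other strand.
Saa3 (chr7:46715627-46715926, minus strand): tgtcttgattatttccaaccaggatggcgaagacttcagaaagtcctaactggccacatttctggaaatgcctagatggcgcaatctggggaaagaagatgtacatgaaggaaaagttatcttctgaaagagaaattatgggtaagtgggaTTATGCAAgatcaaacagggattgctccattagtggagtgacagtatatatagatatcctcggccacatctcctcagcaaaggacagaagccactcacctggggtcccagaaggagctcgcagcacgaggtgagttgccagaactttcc
Lcn2 (chr2:32387690-32387989, minus strand): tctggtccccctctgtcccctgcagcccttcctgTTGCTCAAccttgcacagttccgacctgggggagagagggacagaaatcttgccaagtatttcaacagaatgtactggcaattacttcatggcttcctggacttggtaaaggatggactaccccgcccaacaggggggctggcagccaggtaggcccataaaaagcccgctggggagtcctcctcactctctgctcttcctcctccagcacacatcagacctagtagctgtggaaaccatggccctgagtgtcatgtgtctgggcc
Steap4 (chr5:7960222-7960521, plus strand): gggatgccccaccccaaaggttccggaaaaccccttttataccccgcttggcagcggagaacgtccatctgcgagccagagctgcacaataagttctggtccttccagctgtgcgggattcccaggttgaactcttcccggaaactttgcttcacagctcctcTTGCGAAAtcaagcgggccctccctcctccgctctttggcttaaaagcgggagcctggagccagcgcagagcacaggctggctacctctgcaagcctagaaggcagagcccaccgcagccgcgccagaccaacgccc
A pair of interferon-stimulated genes, both lower at day 21, follows. Capitals mark GAAANNGAA, the core of the interferon-stimulated response element. The 3 matches of Ifit1, on the other strand, began 109, 103 and 84 bases before the start, and the overlapping ones of Isg15 began at 78, 72 and 66.
Ifit1 (chr19:34640639-34640938, plus strand): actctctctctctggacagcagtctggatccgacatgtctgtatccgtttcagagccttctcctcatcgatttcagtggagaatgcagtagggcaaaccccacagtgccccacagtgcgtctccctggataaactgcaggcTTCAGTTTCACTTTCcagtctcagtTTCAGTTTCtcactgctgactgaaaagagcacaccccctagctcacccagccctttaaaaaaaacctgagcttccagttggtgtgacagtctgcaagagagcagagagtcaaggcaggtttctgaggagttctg
Isg15 (chr4:156200769-156201068, minus strand): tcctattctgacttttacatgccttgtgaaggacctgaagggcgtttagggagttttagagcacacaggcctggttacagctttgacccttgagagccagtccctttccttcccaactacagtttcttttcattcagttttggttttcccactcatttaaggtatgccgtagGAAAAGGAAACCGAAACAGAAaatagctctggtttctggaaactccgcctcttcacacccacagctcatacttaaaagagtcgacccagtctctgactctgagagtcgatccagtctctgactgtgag
In these mitotic genes, also lower, capitals mark the cell cycle homology region TTTGAA and the CCAAT box CCAAT, which reads on the other strand in Kif23.
Kif23 (chr9:61946750-61947049, minus strand): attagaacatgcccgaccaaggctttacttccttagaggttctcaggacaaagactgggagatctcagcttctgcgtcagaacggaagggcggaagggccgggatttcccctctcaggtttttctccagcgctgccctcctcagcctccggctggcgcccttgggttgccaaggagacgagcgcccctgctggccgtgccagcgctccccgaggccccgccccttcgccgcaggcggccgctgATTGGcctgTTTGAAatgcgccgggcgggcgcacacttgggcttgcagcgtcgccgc
Ccnb2 (chr9:70421505-70421804, minus strand): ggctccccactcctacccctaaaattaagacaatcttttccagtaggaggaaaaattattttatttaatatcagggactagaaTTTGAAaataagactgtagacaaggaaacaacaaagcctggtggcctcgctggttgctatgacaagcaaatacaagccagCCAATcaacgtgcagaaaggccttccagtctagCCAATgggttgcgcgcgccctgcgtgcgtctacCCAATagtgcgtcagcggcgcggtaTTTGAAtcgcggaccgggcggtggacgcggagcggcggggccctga
The last is a lysosomal channel gene, higher at day 21, where capitals mark TCACGTGA, the palindrome of the CLEAR element bound by TFEB, 46 bases before the start.
Mcoln1 (chr8:3500269-3500568, plus strand): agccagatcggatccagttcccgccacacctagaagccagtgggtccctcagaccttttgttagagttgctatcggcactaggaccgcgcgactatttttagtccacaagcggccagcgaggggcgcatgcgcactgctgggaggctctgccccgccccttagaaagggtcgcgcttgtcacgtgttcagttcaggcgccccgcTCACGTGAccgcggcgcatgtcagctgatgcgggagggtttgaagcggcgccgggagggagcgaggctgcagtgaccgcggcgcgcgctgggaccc

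The table holds 32851 promoter windows, and each share is given beside that over all of them. C/EBP-like motifs stood in 8 of 11 windows (72.7%) of the 10 complement and acute-phase genes that matched the table, against 10.8% of all windows. GAAANNGAA stood in 11 of 20 windows (55.0%) of 18 interferon-stimulated genes, against 8.56%. TTTGAA stood in 18 of 24 windows (75.0%) of 23 mitotic genes against 17.9%, and CCAAT in 19 of 24 (79.2%) against 37.4%. TCACGTGA stood in 5 of 24 windows (20.8%) of 20 lysosomal genes, against 0.974%. The NF-kappaB-like motif GGGANTTTC stood in none of the 11 acute-phase windows and in 6 of 24 chemokine and cytokine windows (25.0%), against 1.11% of all. The C/EBP-ATF motif TGATGNAA stood in 7 of 24 windows (29.2%) of 20 amino acid supply genes, against 3.97%. Only 1 of 23 windows (4.35%) of 18 sterol and fatty acid genes held a sterol regulatory element, against 1.24%, and 1 of 13 (7.69%) of 12 contractile genes held a CArG box, against 1.63%. These shares are descriptions of short windows, and a missing match says only that the letters are not there.

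The targeted gene followed the labels. Hoxb13 (ENSMUSG00000049604, chromosome 11, 96194316 to 96197447, plus strand; positions are those of GENCODE M21 on GRCm38) had 331, 326 and 324 RPM in the day 1 libraries and 251, 254 and 238 RPM in the day 21 libraries, and went from 0.375 ± 0.197 to 0.343 ± 0.197 RPM in the vector groups. RPM are gene reads scaled by the authors to 1000000 reads of an effective, TMM-corrected library, and ± is the SD over 3 libraries for a level and the SE for a fold change. Hoxb13 fell (log2 fold change of -0.40 ± 0.10, adjusted p = 0.000696), with no overlap between the days. Trp53, the deleted gene, still had reads, 44.7, 45.4 and 45 RPM at day 1 and 31.9, 31.5 and 32.9 RPM at day 21, and gene totals do not show which exons they came from. The Y-linked Ddx3y stood at 98.3 ± 1.32 RPM at day 1 and 106 ± 2.09 at day 21 in HOXB13 cells, and Xist, of the inactive X chromosome, at 0.332 ± 0.162 RPM at day 1 and 0.303 ± 0.164 at day 21, while in vector cells Xist went from 427 ± 28.8 to 158 ± 8.03 RPM. In a comparison with vector cells, virus and culture therefore cannot be told apart. The species of the HOXB13 insert is not stated in the labels.

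Gene reads ran from 13299600 to 15154317 per HOXB13 library. The 10 highest genes took 4.95% ± 0.075 of reads at day 1 and 8.12% ± 0.098 at day 21, and mitochondrial genes 1.38% ± 0.037 and 1.75% ± 0.042. Log2 levels of replicates correlated across genes with r from 0.997 to 0.998, and those of day 1 with day 21 libraries with r from 0.868 to 0.871. In a principal component analysis of the 6 libraries, component 1 parted the days and held 97.6% of the variance.

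The change was broad. By limma, 10830 genes (80.1% of those tested) passed an adjusted p of 0.05, 5341 (39.5%) higher and 5489 (40.6%) lower at day 21. The libraries of the days did not overlap for 11055 genes (81.8%). A fit to the 6 HOXB13 libraries alone called 10921 genes. So small a spread makes the 2-fold counts more useful. At least 2-fold changes with the same adjusted p were found for 1778 genes higher (13.2%) and 1418 lower (10.5%), and the counts of list members below are to be read against these shares. The split depends on scaling. Without the authors' TMM factors, whose effective library size was 1.15 times the counted one at day 1 and 0.956 times at day 21, 34.5% of calls were higher in place of 49.3% (3865 higher and 7342 lower), 1389 genes were 2-fold higher and 1990 lower, and the median over all genes was -0.24 in place of -0.01. Fold changes are on the log2(RPM + 1) scale, which understates the change of genes below a few RPM. The filter lets in 507 genes below 1 RPM in every day 1 library and at or above it in every day 21 library, and 355 the other way, which had to differ.

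**Figure D1:**
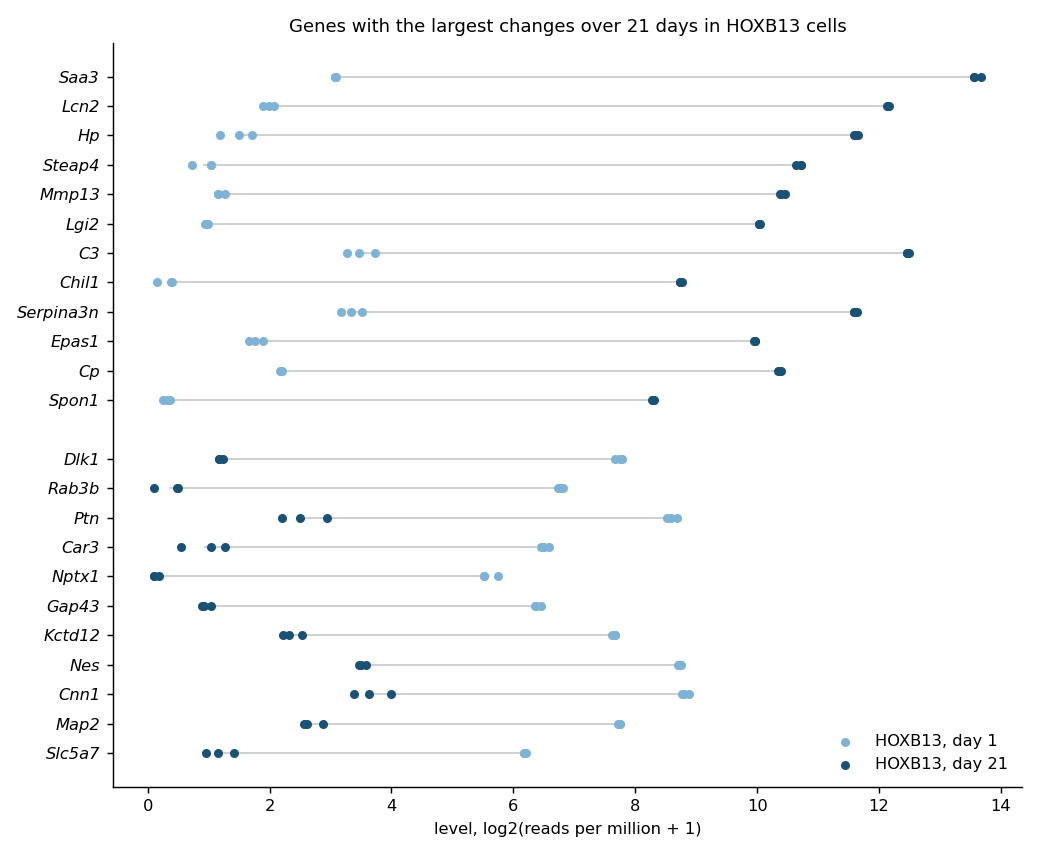
Genes at both ends of the ranking by log2 fold change under the naming rule, 12 up and 11 down, as log2(RPM + 1) in each of the 3 day 1 (light) and 3 day 21 (dark) HOXB13 libraries; grey lines join the group means. The genes were picked for the size of their change, so the wide gap between the days in each gene follows from that choice. Log2 fold changes run from 10.52 for Saa3 to -6.54 for Dlk1.

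Acute-phase genes made the largest gains. Saa3, a serum amyloid A made outside the liver in mice (ENSMUSG00000040026, chromosome 7, 46711998 to 46715700, minus strand), had 7.39, 7.52 and 7.44 RPM in the day 1 libraries and 12050.2, 12084 and 13069 RPM in the day 21 libraries. Its log2 fold change was 10.52 ± 0.05, adjusted p = 6.77e-34. Lcn2, the siderophore-binding lipocalin 2 (ENSMUSG00000026822, chromosome 2, 32384633 to 32388252, minus strand), had 2.97, 2.72 and 3.2 RPM in the day 1 libraries and 4479.7, 4607 and 4547 RPM in the day 21 libraries (10.17 ± 0.06, adjusted p = 4.38e-33). In both genes the 3 day 21 libraries lay close together, above all day 1 libraries. Hp encodes haptoglobin, which binds free haemoglobin, and had 1.28, 1.82 and 2.27 RPM in the day 1 libraries and 3075, 3110.3 and 3238 RPM in the day 21 libraries (10.15 ± 0.09, adjusted p = 2.66e-29). Steap4, a metalloreductase gene, had 1.05, 0.649 and 1.04 RPM in the day 1 libraries and 1594, 1692 and 1686 RPM in the day 21 libraries (9.77 ± 0.08, adjusted p = 1.69e-30). C3, the central complement component, had 10.1, 8.63 and 12.3 RPM in the day 1 libraries and 5614, 5747 and 5595 RPM in the day 21 libraries (8.98 ± 0.06, adjusted p = 4.14e-31). The days did not overlap for any of the 3, which follows from picking the largest changes.

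Of the 18 listed complement and acute-phase genes 16 were tested, and all 16 rose, 15 of them at least 2-fold. Their median log2 fold change was 5.96, against -0.01 over all tested genes. C1ra and C1s1, the proteases of the first complement complex, rose from 5.95 ± 0.143 to 213 ± 8.27 RPM and from 4.16 ± 0.366 to 256 ± 2.14 RPM, log2 fold changes of 4.94 ± 0.07 and 5.64 ± 0.05. Serping1, the inhibitor of these proteases, rose from 3.79 ± 0.608 to 887 ± 12.8 RPM (7.54 ± 0.09). Genes of both the activating and the inhibiting side rose. Cfb, the protease of the alternative pathway, had 0, 0.13 and 0.0615 RPM at day 1 and 226, 216 and 242 RPM at day 21. With so few day 1 reads its log2 fold change depends on the pseudocount, 7.75 here and 11.64 by edgeR. Cd55, a membrane inhibitor of complement, rose least (0.50 ± 0.06). Saa1 and Saa2, near-identical neighbours whose reads may be split between them, stood at 0 and 0.041 RPM at day 1 and at 35.9 and 42.8 RPM at day 21. Outside the list, Serpina3n, a serine protease inhibitor of a multigene family, rose from 9.23 ± 1.24 to 3122 ± 50.9 RPM (8.26 ± 0.09), and Cp, the copper ferroxidase ceruloplasmin, rose from 3.56 ± 0.0676 to 1322 ± 18.2 RPM (8.18 ± 0.05). Chil1, a chitinase-like lectin, rose from 0.249 ± 0.115 to 427 ± 6.78 RPM (8.42 ± 0.09). These genes can also come from leukocytes. The summed level of the 9 macrophage and leukocyte markers was 2.4 to 3.55 RPM at day 1 and 5.77 to 6.33 at day 21. Both tested markers passed, Csf1r, the receptor of a macrophage growth factor, rising from 0.311 ± 0.118 to 4.02 ± 0.409 RPM (1.94 ± 0.12) and Cd68, of lysosomes, falling from 2.73 ± 0.712 to 1.83 ± 0.33 RPM (-0.39 ± 0.15). The fall of Cd68 did not pass by DESeq2 (-0.55), with no filter (-0.39), without replicate 1 (-0.26) or 2 (-0.35) of day 1, or without replicate 2 (-0.32) or 3 (-0.36) of day 21. The other 7 lay below the filter. Adgre1 and Tyrobp had no read in any HOXB13 library and Itgam had 1 read, Ptprc stood at 0.0421 and 0.0232 RPM and Lyz2 at 0 and 0.0232. The part of such cells in the acute-phase change was not tested.

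Most chemokine and cytokine genes rose with them, while a smaller part fell. Of 28 listed genes 26 were tested, 19 rose (18 at least 2-fold) and 6 fell (all 6 at least 2-fold), with a median of 2.12. Ccl2, which attracts monocytes, had 21.4, 22.4 and 21.3 RPM in the day 1 libraries and 502, 539 and 451 RPM in the day 21 libraries (4.45 ± 0.05, adjusted p = 3.57e-28). Cxcl5 and Cxcl1, which attract neutrophils, rose from 13.3 ± 0.0927 to 1022 ± 21.4 RPM and from 2.57 ± 0.646 to 222 ± 20.9 RPM (6.16 ± 0.05 and 5.98 ± 0.10). Ccl7, another monocyte attractant, rose from 12.8 ± 1.26 to 263 ± 2.66 RPM (4.26 ± 0.06). Nos2, the inducible nitric oxide synthase, stood at 0.107 ± 0.136 RPM at day 1 and 108 ± 10.3 at day 21 (6.63 ± 0.13). Nfkbia and Tnfaip3, feedback inhibitors of NF-kappaB, rose from 25.9 ± 1.71 to 163 ± 3.31 RPM (2.61 ± 0.05) and from 11.9 ± 1.86 to 44.8 ± 3.61 RPM (1.84 ± 0.08). The stromal chemokine Cxcl12 rose from 329 ± 8.49 to 1511 ± 44.2 RPM (2.20 ± 0.05) and Il33, an alarmin, rose from 2.88 ± 0.507 to 26.3 ± 3.4 RPM (2.81 ± 0.10). Tnfsf11, the osteoclast-inducing cytokine RANKL, had 3.43, 3.05 and 4.36 RPM in the day 1 libraries and 111, 109 and 101 RPM in the day 21 libraries (4.56 ± 0.10, adjusted p = 3.13e-22). Its decoy receptor Tnfrsf11b (osteoprotegerin) rose from 1.1 ± 0.215 to 8.58 ± 0.68 RPM (2.19 ± 0.12). The days did not overlap for either. The genes that fell were Cxcl10 (-2.84 ± 0.17) and Ccl5 (-1.43 ± 0.15), both also interferon-inducible, Cx3cl1 (-2.59 ± 0.09), the prostaglandin synthase gene Ptgs2 (-2.34 ± 0.06), the IL-33 receptor gene Il1rl1 (-2.06 ± 0.10) and Il11 (-1.38 ± 0.15).

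Interferon-stimulated genes went down as a group. Ifit1 (ENSMUSG00000034459, chromosome 19, 34640871 to 34650009, plus strand), an RNA-binding antiviral protein gene, had 54.8, 56 and 69.7 RPM in the day 1 libraries and 5.61, 3.98 and 5.01 RPM in the day 21 libraries (-3.38 ± 0.35, adjusted p = 5.29e-09). Isg15, a ubiquitin-like modifier gene (ENSMUSG00000035692, chromosome 4, 156199424 to 156200818, minus strand), had 35.9, 40.2 and 42 RPM in the day 1 libraries and 5.69, 5.07 and 5.15 RPM in the day 21 libraries (-2.68 ± 0.18, adjusted p = 3.06e-12). For both genes every day 21 library lay below every day 1 library. Of 24 listed genes 22 were tested, 21 fell, 15 at least 2-fold, none rose, and the median was -1.97. Usp18, which takes ISG15 off proteins, fell from 27.5 ± 3.08 to 2.87 ± 0.534 RPM (-2.89 ± 0.31), and Rtp4 fell from 26 ± 1.69 to 2.92 ± 0.312 RPM (-2.78 ± 0.24). Irf7, which amplifies type I interferon production, fell from 19.2 ± 1.76 to 2.29 ± 0.522 RPM (-2.63 ± 0.21). The RNA sensors Ifih1 and Ddx58 fell from 58.9 ± 3.04 to 14.6 ± 0.539 RPM (-1.94 ± 0.10) and from 86.8 ± 3.63 to 39.3 ± 3.2 RPM (-1.12 ± 0.09). The transcription factors of the response fell as well, Irf9 with -1.03 ± 0.11 and Stat2 with -0.28 ± 0.09. Ifit2 was the tested member that did not pass, at 65.4 ± 2.7 RPM at day 1 and 60.1 ± 0.685 at day 21 (-0.12 ± 0.06, adjusted p = 0.0546). In vector cells at day 1 Ifit1 stood at 4.95 ± 1.46 RPM and Isg15 at 6.36 ± 1.41.

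Antigen presentation genes, many of which interferons can also raise, went the other way. Of 15 tested, 13 rose, 9 at least 2-fold, and 1 fell, with a median of 1.42. The MHC class I heavy chain genes H2-K1 and H2-D1 rose from 62.7 ± 0.827 to 502 ± 2.89 RPM (2.98 ± 0.03) and from 142 ± 6.6 to 1009.6 ± 15.8 RPM (2.82 ± 0.05), and B2m, their shared light chain gene, rose from 382 ± 14.6 to 1185 ± 24.6 RPM (1.63 ± 0.05). Nlrc5, the transactivator of class I genes, rose from 1.7 ± 0.0441 to 21.6 ± 0.603 RPM (3.06 ± 0.12). Tap1 and Tap2, the peptide transporter subunits, rose by 0.87 ± 0.09 and 0.91 ± 0.07. H2-Q4 rose too (2.73 ± 0.07), but reads of the H2-Q genes may be shared between near-identical copies. Erap1, a peptide-trimming protease gene, fell (-0.28 ± 0.06).

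**Figure D2:**
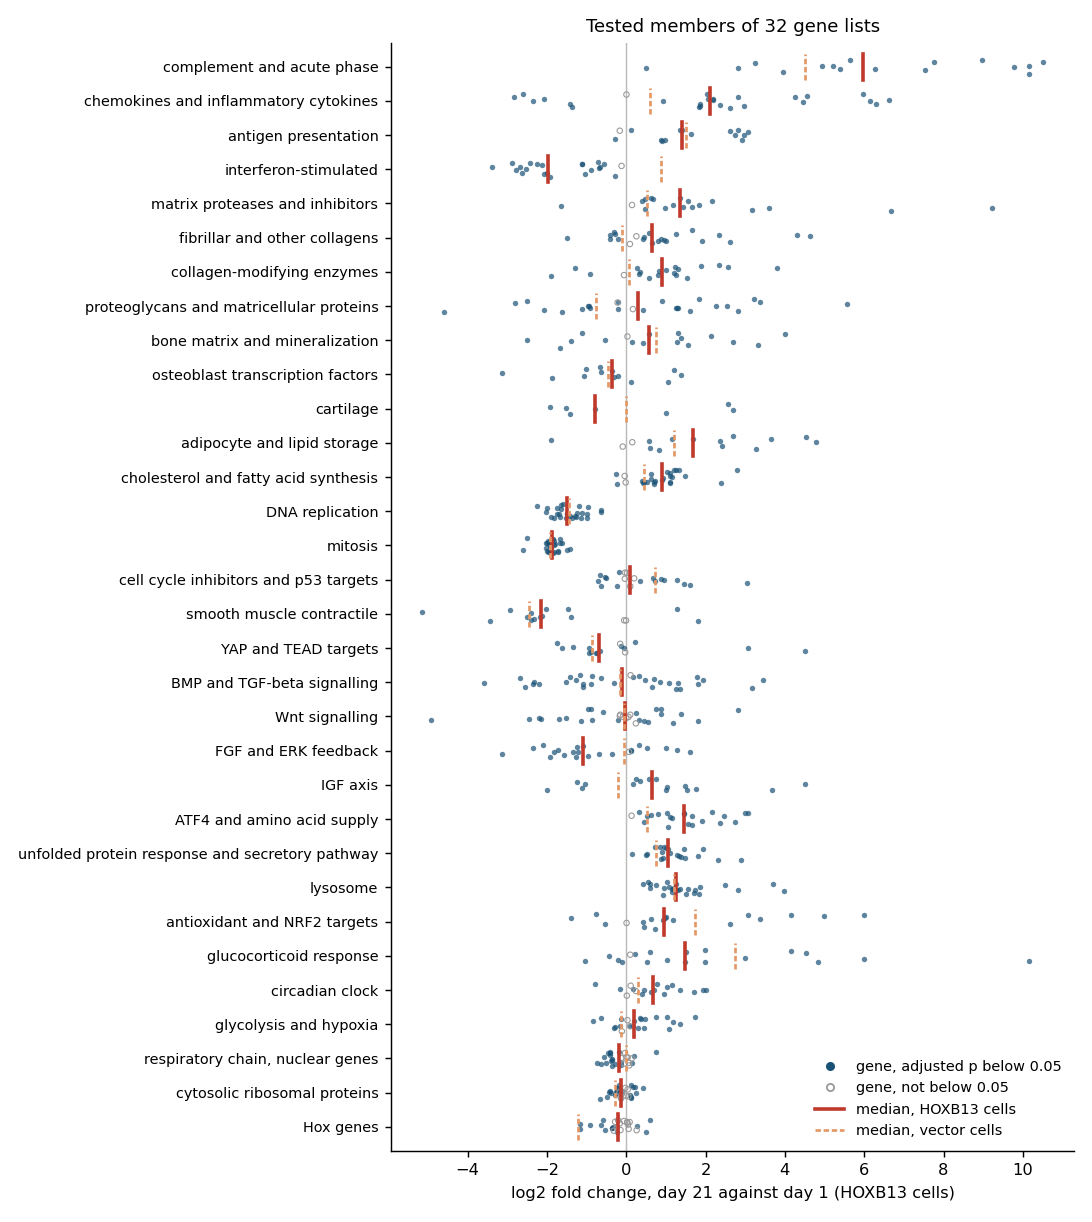
Log2 fold change from day 1 to day 21 in HOXB13 cells for each tested member of 32 gene lists (points; filled, adjusted p below 0.05; open, not), with the list's median in HOXB13 cells (red) and in vector cells (orange, dashed). The complement and acute-phase median lies at 5.96 and the mitosis median at -1.88; the interferon-stimulated median is -1.97 in HOXB13 and 0.87 in vector cells.

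Matrix-degrading enzymes and collagen genes rose together. Mmp13, collagenase 3 (ENSMUSG00000050578, chromosome 9, 7272514 to 7283331, plus strand), had 1.22, 1.23 and 1.41 RPM in the day 1 libraries and 1334, 1337 and 1403 RPM in the day 21 libraries (9.21 ± 0.06, adjusted p = 1.34e-31). Mmp3, stromelysin 1, had 10.1, 14.3 and 12.7 RPM in the day 1 libraries and 1269, 1410.4 and 1383 RPM in the day 21 libraries (6.68 ± 0.08, adjusted p = 7.32e-27). Mmp2, gelatinase A, had 168, 172 and 177 RPM in the day 1 libraries and 2096, 2088 and 2160.4 RPM in the day 21 libraries (3.61 ± 0.03, adjusted p = 7e-30). No day 21 library of the 3 overlapped a day 1 library. Of the 20 listed proteases and inhibitors 19 were tested, 17 rose (11 at least 2-fold) and 1, the membrane-bound Mmp16, fell (-1.64 ± 0.09), with a median of 1.34. The aggrecanase genes Adamts5 and Adamts4 rose by 0.97 ± 0.04 and 0.48 ± 0.07. Of the inhibitors, Timp1 rose from 116 ± 7.09 to 414 ± 13.5 RPM (1.83 ± 0.03), Timp2 by 0.47 ± 0.03 and Timp3 by 0.39 ± 0.03, the last of which was -0.0057 under quantile normalization.

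Of 23 collagen genes 15 rose, 8 of them at least 2-fold, and 6 fell, 1 at least 2-fold (median 0.66, or 0.30 under quantile normalization). The fibrillar Col3a1 rose from 1891 ± 45.8 to 11650.3 ± 183 RPM (2.62 ± 0.04), and Col1a1 and Col1a2, the chains of type I collagen, rose from 5761 ± 81.8 to 8530.3 ± 209 RPM (0.57 ± 0.04) and from 3141 ± 72.3 to 6087 ± 207 RPM (0.95 ± 0.03). The direction for Col1a1 depends on scaling, since its log2 fold change was 0.30 without the TMM factors and -0.58 under quantile normalization. The basement membrane chains Col4a1 and Col4a2, which lie head to head on chromosome 8, rose by 1.67 ± 0.02 and 1.91 ± 0.02. Gains were largest in Col18a1, the source of endostatin, from 22.1 ± 1.81 to 574 ± 5.94 RPM (4.64 ± 0.06), and in Col14a1, a fibril-associated collagen, from 3.55 ± 0.197 to 88.2 ± 1.51 RPM (4.29 ± 0.12). Col8a1 was the collagen that fell at least 2-fold (-1.49 ± 0.03). Enzymes that process collagen moved with it: 16 of 20 rose, 9 at least 2-fold, and 3 fell (median 0.91). Adamts2 and Adamts14, which cut off procollagen amino ends, rose from 25.6 ± 1.43 to 367 ± 12.3 RPM (3.79 ± 0.04) and from 15.3 ± 0.642 to 96.1 ± 3.63 RPM (2.57 ± 0.05). The prolyl hydroxylase subunit P4ha2 rose by 2.34 ± 0.04, the lysyl hydroxylase Plod1 by 1.89 ± 0.03 and the lysyl oxidase Lox by 1.21 ± 0.03, while Loxl3 fell (-1.90 ± 0.04).

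Other matrix genes were split. Of 26 proteoglycan and matricellular genes 13 rose, 11 at least 2-fold, and 11 fell, 6 at least 2-fold. Their median was 0.29, and it changed sign to -0.0185 under quantile normalization. Prelp, a leucine-rich proteoglycan, rose from 1.17 ± 0.353 to 101 ± 2.25 RPM (5.57 ± 0.10), Dcn (decorin) from 48.7 ± 4.16 to 509 ± 6.26 RPM (3.36 ± 0.04) and Postn (periostin, a fibroblast matricellular protein) from 208 ± 13.1 to 1948 ± 89.8 RPM (3.22 ± 0.06). Thbs2 and Thbs1, which encode related thrombospondins, moved apart, Thbs2 rising from 243 ± 7.94 to 1159.7 ± 25.1 RPM (2.25 ± 0.04) and Thbs1 falling from 2805 ± 85.7 to 403 ± 19.1 RPM (-2.80 ± 0.03). Fbn1 and Fbn2, the fibrillins, did so as well, at 0.90 ± 0.03 and -4.60 ± 0.04, with Fbn2 falling from 304 ± 8.16 to 11.5 ± 0.513 RPM. Mfap5 fell (-2.08 ± 0.09) and Eln (elastin) rose from 2.29 ± 0.038 to 22.1 ± 1.03 RPM (2.81 ± 0.13).

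Bone genes changed without a common direction. Runx2, which starts the osteoblast program (ENSMUSG00000039153, chromosome 17, 44495987 to 44814797, minus strand), had 45.7, 49.4 and 51.3 RPM in the day 1 libraries and 30.3, 30.4 and 32.1 RPM in the day 21 libraries and fell (-0.64 ± 0.06, adjusted p = 5.32e-10). Alpl, tissue-nonspecific alkaline phosphatase (ENSMUSG00000028766, chromosome 4, 137741733 to 137796384, minus strand), had 0.407, 0.454 and 0.43 RPM in the day 1 libraries and 14.6, 12.8 and 12.7 RPM in the day 21 libraries. Its log2 fold change was 3.33 ± 0.10, adjusted p = 1.41e-19, or 4.91 by edgeR. Spp1, osteopontin, had 71.6, 78.4 and 76.1 RPM in the day 1 libraries and 1179, 1280.3 and 1213 RPM in the day 21 libraries (4.004 ± 0.04, adjusted p = 1.94e-29). The days did not overlap for these 3 genes. Of the 9 osteoblast and osteocyte markers only Alpl and Phex were tested, and Phex fell (-0.54). The 9 markers summed to 1.28 to 2.01 RPM at day 1 and 13.2 to 15.5 RPM at day 21. In vector cells at day 21 the sum was 230 to 237 RPM, nearly all of it Alpl. Sp7 and the other late osteoblast genes stayed below the filter. Sp7 had 7 reads over the 3 libraries at day 1 and 2 at day 21, and Bglap (osteocalcin) 1 and 0, where 3 reads correspond to 0.0614 and 0.0743 RPM per group. Ibsp (bone sialoprotein) had 3 reads at day 1 and 17 at day 21, the latter 0.424 ± 0.0658 RPM. Dmp1 and Mepe, osteocyte genes, had 7 and 3 reads at day 1 and 0 and 2 at day 21. At this depth these levels allow no statement on a smaller change.

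Of the 23 bone matrix and mineralization genes 17 were tested, 11 rose (8 at least 2-fold) and 5 fell (4 at least 2-fold), with a median of 0.58. That median depends on how low genes are treated, and was 1.34 by DESeq2, 1.29 by edgeR, 1.31 with a pseudocount of 0.25 and 0.93 with a filter of 5 RPM. Sparc (osteonectin) rose from 1500.4 ± 15.6 to 4384 ± 80.7 RPM (1.55 ± 0.02), Bmp1, the procollagen carboxy-end protease, by 2.14 ± 0.03, and Col24a1, a fibrillar collagen of developing bone, from 12 ± 0.808 to 82.9 ± 5.8 RPM (2.69 ± 0.08). Enpp1, which makes the mineralization inhibitor pyrophosphate, rose from 80.2 ± 2.66 to 212 ± 9.64 RPM (1.39 ± 0.05), and Ank, which exports pyrophosphate, fell (-1.12 ± 0.05). Phospho1, a phosphatase of matrix vesicles, rose from 1.17 ± 0.229 to 4.4 ± 0.74 RPM (1.31 ± 0.14). Smpd3, a sphingomyelinase that mice need for bone mineralization, fell from 7.18 ± 0.93 to 2.2 ± 0.861 RPM (-1.39 ± 0.12). Ogn and Omd, small proteoglycan genes that neighbour each other on chromosome 13, fell from 164 ± 6.47 to 28.4 ± 4.57 RPM (-2.50 ± 0.07) and from 2.4 ± 0.818 to 0.0513 ± 0.0444 RPM (-1.67 ± 0.15). Among 19 listed osteoblast transcription factors 13 were tested, 4 rose (3 at least 2-fold) and 9 fell (4 at least 2-fold), with a median of -0.35. Id4 fell most, from 12 ± 1.17 to 0.469 ± 0.143 RPM (-3.15 ± 0.16). Zfp521, an antagonist of Runx2, fell (-1.07 ± 0.06). Runx1 and Zeb2 rose by 1.20 ± 0.04 and 1.39 ± 0.04, and Twist1, which restrains Runx2, fell (-0.35 ± 0.05).

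**Figure D3:**
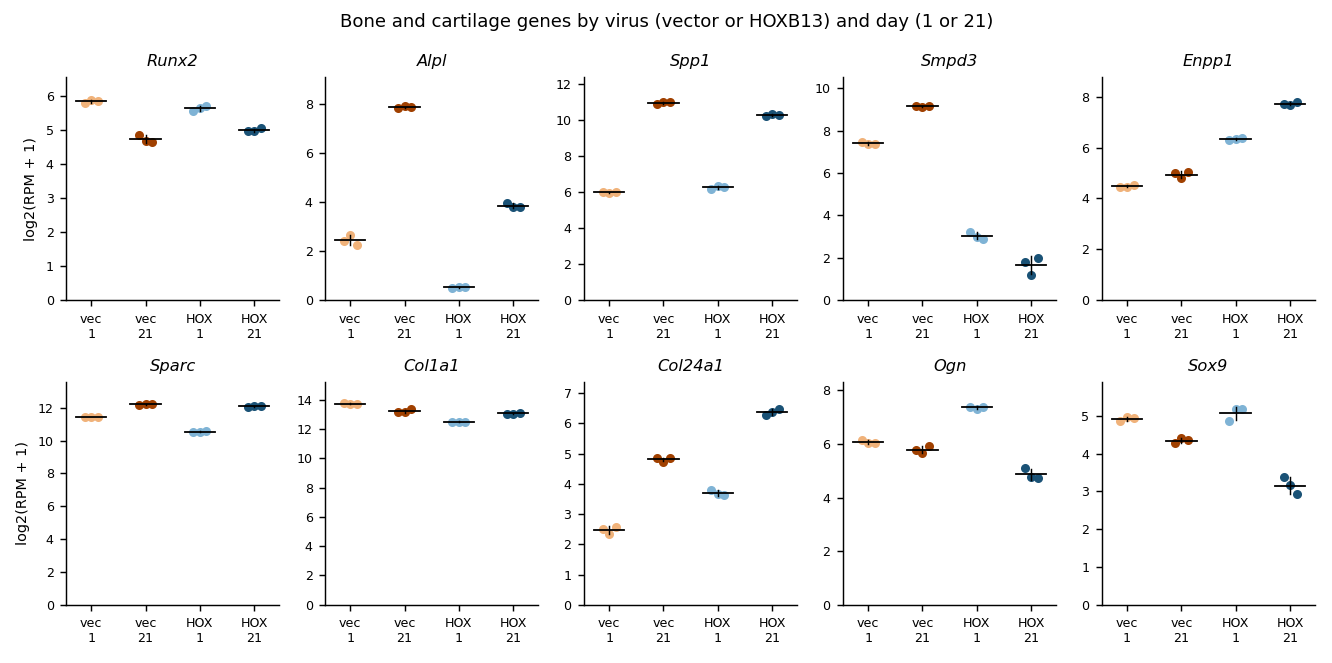
Levels of 10 bone and cartilage genes, as log2(RPM + 1), in each library of vector (vec) and HOXB13 (HOX) cells at day 1 and day 21; bars are the mean and its SD over 3 libraries. Spp1 reached 1224 RPM at day 21 in HOXB13 cells, Alpl 13.4 RPM against 232 in vector cells, and Runx2 was lower at day 21 than at day 1 in the cells of both viruses.

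Cartilage and fat genes showed no complete program. Sox9, the cartilage regulator, fell from 32.8 ± 3.88 to 7.96 ± 1.36 RPM (-1.92 ± 0.09, adjusted p = 4.9e-15). Of 17 cartilage genes only 7 were tested, 3 higher and 4 lower, and their median of -0.79 became 2.57 with a filter of 5 RPM, which left fewer of them. Sox5, a partner of Sox9, rose by 2.57 ± 0.12, and Prg4 (lubricin) from 16.4 ± 1.05 to 112 ± 5.67 RPM. Pparg, the adipocyte regulator, fell from 5.43 ± 0.327 to 0.722 ± 0.12 RPM (-1.90 ± 0.11, adjusted p = 1.57e-13), and Adipoq (adiponectin) stayed at 0.141 and 0.175 RPM. Yet of 15 tested adipocyte and lipid storage genes, of 19 listed, 12 rose, 9 at least 2-fold, and only Pparg fell (median 1.69). Lpl, lipoprotein lipase, had 18.7, 15.9 and 17.3 RPM at day 1 and 509, 499 and 507 RPM at day 21 (4.79 ± 0.04, adjusted p = 7.33e-30), without overlap. Angptl4, an inhibitor of that lipase, rose from 27.9 ± 1.74 to 669 ± 5.86 RPM (4.53 ± 0.04). Fabp4 rose from 55.6 ± 3.85 to 362 ± 3.79 RPM (2.69 ± 0.05) and the lipid droplet gene Plin2 from 96.6 ± 0.88 to 502 ± 9.16 RPM (2.37 ± 0.03). The C/EBP genes, Cebpd and Cebpb, rose from 19.7 ± 1.69 to 259 ± 17.7 RPM (3.65 ± 0.05) and from 42.4 ± 4.98 to 229 ± 31.1 RPM (2.40 ± 0.07), and Cebpa by 0.57 ± 0.12. Of 27 cholesterol and fatty acid synthesis genes 23 rose, 12 at least 2-fold, and 2 fell (median 0.89). Sc5d, a late enzyme of cholesterol synthesis, rose from 75.4 ± 1.97 to 399 ± 3.65 RPM (2.39 ± 0.04) and Insig1, a sterol-sensing regulator, from 55.7 ± 1.45 to 157 ± 4.12 RPM (1.47 ± 0.04), while Fasn, the fatty acid synthase, fell slightly (-0.26 ± 0.03).

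Proliferation genes fell without exception among the list members. Mki67 (ENSMUSG00000031004, chromosome 7, 135689784 to 135716361, minus strand) had 459, 460.3 and 444 RPM in the day 1 libraries and 124, 110.1 and 115 RPM in the day 21 libraries (-1.96 ± 0.04, adjusted p = 2.78e-23). Kif23, a kinesin of cytokinesis, had 149, 156 and 156 RPM at day 1 and 25, 25.6 and 22.6 RPM at day 21 (-2.61 ± 0.04, adjusted p = 5.25e-24). Ccnb2, cyclin B2, had 83.9, 75.6 and 79.2 RPM at day 1 and 26.2, 22.7 and 21.5 RPM at day 21 (-1.72 ± 0.06, adjusted p = 9.79e-18). Every day 21 library lay below every day 1 library in these 3 genes. All 28 mitosis genes fell at least 2-fold, with log2 fold changes from -2.61 to -1.42 (median -1.88). All 28 DNA replication genes fell, 23 at least 2-fold (median -1.50), among them Mcm5 of the replicative helicase (-2.02 ± 0.04), the licensing factor Cdc6 (-1.99 ± 0.07) and Uhrf1 (-2.25 ± 0.04). Bulk libraries cannot tell fewer cycling cells from less RNA per cell. Cell cycle inhibitors were mixed: of 21 tested, 9 rose (4 at least 2-fold) and 7 fell (none 2-fold). Their median of 0.10 became -0.15 without the TMM factors. Cdkn1a, p21, rose from 9.67 ± 1.27 to 25 ± 1.01 RPM (1.29 ± 0.09) in these p53-deleted cells, Gadd45a rose from 11.5 ± 0.651 to 103 ± 2.56 RPM (3.06 ± 0.05) and Cdkn2a rose from 256 ± 2.68 to 425 ± 6.44 RPM (0.73 ± 0.03). Cdkn1b, p27, fell (-0.67 ± 0.04).

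The contractile program fell. Acta2, smooth muscle actin, had 2986, 2815 and 2845 RPM in the day 1 libraries and 272, 278 and 251 RPM in the day 21 libraries (-3.43 ± 0.03, adjusted p = 3.05e-29). Cnn1, calponin 1, had 469.6, 445 and 434 RPM at day 1 and 11.5, 14.9 and 9.4 RPM at day 21 (-5.15 ± 0.09, adjusted p = 1.06e-23). The days did not overlap for either. Of 16 tested genes 12 fell, all 12 at least 2-fold, and 2 rose, with a median of -2.15. Tagln, Tpm1 and Myl9 fell with log2 fold changes of -2.92, -2.31 and -2.41, and Myocd, the coactivator that drives these genes in smooth muscle, fell from 8.16 ± 0.789 to 0.622 ± 0.0735 RPM (-2.50 ± 0.11). The desmin gene Des and the myosin kinase gene Mylk rose by 1.80 ± 0.09 and 1.28 ± 0.06. Of 16 YAP and TEAD target genes 11 fell, 3 at least 2-fold, and 3 rose (median -0.70). Ccn1 fell from 698 ± 6.37 to 226 ± 11.9 RPM (-1.62 ± 0.03), and Ccn2 (-0.94 ± 0.03) and Ajuba (-1.74 ± 0.05) fell with it, while Igfbp3, which other pathways also control, rose from 173 ± 6.26 to 3949 ± 219.9 RPM (4.50 ± 0.05, adjusted p = 5.06e-28).

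Signalling genes fell and rose in about equal number in the BMP, TGF-beta and Wnt lists. Of 34 listed BMP and TGF-beta genes 32 were tested, 15 rose (9 at least 2-fold) and 16 fell (12 at least 2-fold). The median of -0.10 became 0.11 with a filter of 5 RPM. Among ligands, Inhba, the activin A subunit, fell from 295 ± 3.9 to 23.5 ± 1.39 RPM (-3.59 ± 0.05, adjusted p = 3.85e-26), Bmp4 from 34.2 ± 2.06 to 11.2 ± 0.96 RPM (-1.53 ± 0.06) and Tgfb3 as well (-1.17 ± 0.04), while Gdf6 rose from 5.38 ± 0.561 to 68.1 ± 3.95 RPM (3.44 ± 0.08) and Inhbb from 9.23 ± 0.953 to 91.3 ± 8.22 RPM (3.17 ± 0.09). Among receptors, Bmpr2 rose from 187 ± 6.88 to 643 ± 28.3 RPM (1.78 ± 0.04) and the coreceptor gene Tgfbr3 from 163 ± 3.33 to 575 ± 5.16 RPM (1.81 ± 0.04). The direct BMP targets Id1, Id2 and Id3, inhibitors of bHLH factors, fell, Id1 from 89 ± 2.71 to 14.4 ± 0.696 RPM, with log2 fold changes of -2.55, -2.20 and -2.33, and so did the inhibitory Smad6 and Smad7 (-1.42 and -1.08). Grem1, a secreted BMP antagonist, fell (-0.89 ± 0.08).

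Of 34 Wnt genes 30 were tested, 11 rose (4 at least 2-fold) and 12 fell (7 at least 2-fold), with a median of -0.04. The secreted antagonist genes Dkk2 and Sfrp2 fell from 236 ± 5.99 to 6.82 ± 1.38 RPM (-4.93 ± 0.10, adjusted p = 1.57e-22) and from 399 ± 13.3 to 72.8 ± 6.52 RPM (-2.44 ± 0.10), and Sfrp1 rose from 63 ± 3.22 to 224 ± 4.15 RPM (1.81 ± 0.09). Receptor genes Fzd7 and Fzd2 fell (-2.19 and -1.52) and Fzd1 rose by 1.37 ± 0.05. The common Wnt target Axin2 did not pass, at 2.95 ± 0.471 RPM at day 1 and 2.57 ± 0.478 at day 21 (-0.15 ± 0.13, adjusted p = 0.291). In the FGF and ERK list 15 of 23 tested genes fell, 12 at least 2-fold, and 7 rose (median -1.08). Fgf5 fell from 29 ± 2.51 to 2.42 ± 0.0838 RPM (-3.13 ± 0.12), the early response gene Egr1 fell (-2.34 ± 0.04), and so did the feedback inhibitors Spry2, Spry4, Dusp5 and Dusp6 (-1.91, -1.83, -2.09 and -1.27). Fgfr1 and Fgf7 rose by 1.28 ± 0.02 and 1.60 ± 0.05. In the IGF axis 12 of 16 genes rose, 7 at least 2-fold, and 4 fell, all at least 2-fold (median 0.66). Igfbp3, the carrier of circulating IGFs, made the largest gain, and Pappa, a protease of IGF-binding proteins, rose from 17.9 ± 0.626 to 242 ± 6.44 RPM (3.69 ± 0.05). Igf1 rose from 17.5 ± 1.14 to 52 ± 2.45 RPM (1.52 ± 0.09), and the receptor adaptor gene Irs1 fell from 174 ± 1.49 to 43.1 ± 0.329 RPM (-1.99 ± 0.04).

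Most stress, secretory and lysosomal genes rose. Of 22 genes of amino acid supply under ATF4 21 rose, 16 at least 2-fold (median 1.45). Slc7a11, the cystine carrier, rose from 12.8 ± 0.836 to 115 ± 7.77 RPM (3.07 ± 0.05, adjusted p = 3.73e-24), Trib3 from 14.3 ± 0.305 to 122 ± 11.9 RPM (3.01 ± 0.05) and Ddit3, the factor CHOP, from 13.4 ± 0.114 to 63.4 ± 0.987 RPM (2.16 ± 0.05). Of 21 tested genes of the unfolded protein response and secretory pathway (22 listed), all 21 rose, 12 at least 2-fold (median 1.04). The chaperone Hspa5 rose from 972 ± 4.43 to 3416 ± 129 RPM (1.81 ± 0.03), Dnajb9 from 17.6 ± 0.851 to 136 ± 8.88 RPM (2.88 ± 0.05) and Xbp1 by 1.46 ± 0.04. All 27 tested lysosome genes (28 listed) rose, 20 at least 2-fold (median 1.24). The cathepsins Ctsl and Ctsb rose from 305 ± 9.2 to 2149.9 ± 51.8 RPM (2.82 ± 0.03) and from 584 ± 2.14 to 2086 ± 23.4 RPM (1.83 ± 0.02), and Mcoln1, the calcium channel gene whose promoter is printed above, from 36.9 ± 2.25 to 86.1 ± 2.89 RPM (1.20 ± 0.05). Ctsk, the collagen-degrading cathepsin K, had 57, 62.4 and 61.9 RPM at day 1 and 765, 789 and 822 RPM at day 21 (3.69 ± 0.04, adjusted p = 8.69e-28). Cathepsin K is best known from osteoclasts. The summed level of the 7 osteoclast markers, most of it Ctsk, was 89.5 to 95.6 RPM at day 1 and 797 to 855 RPM at day 21. Of the 3 tested, Nfatc1, the osteoclast transcription factor, rose as well, from 16.2 ± 1.18 to 21.9 ± 1.9 RPM (0.41 ± 0.08), though without the TMM factors it did not pass (0.16), and Acp5, tartrate-resistant acid phosphatase, fell from 16.4 ± 0.52 to 11.5 ± 0.231 RPM (-0.47 ± 0.12). Below the filter, Dcstamp had no read in any HOXB13 library, Ocstamp and Calcr had 1 read each, at day 21, and Oscar had 9 reads at day 1 and 3 at day 21. In the antioxidant list 14 of 18 tested genes rose (8 at least 2-fold) and 3 fell (median 0.95). Mt2 rose from 13.4 ± 0.729 to 922 ± 6.22 RPM (6.01 ± 0.06, adjusted p = 4.33e-29), Mt1 from 43.7 ± 0.876 to 798 ± 25.6 RPM (4.16 ± 0.04), Sod3 from 11.2 ± 0.333 to 387 ± 8.14 RPM (4.99 ± 0.09) and Hmox1 from 47.4 ± 1.63 to 296 ± 5.72 RPM (2.62 ± 0.03), while Gsta4 fell (-1.38 ± 0.07).

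Of 19 glucocorticoid response genes 14 rose, 11 at least 2-fold, and 4 fell (median 1.49), and several of them, Lcn2, Mt1, Mt2 and Angptl4 among them, stand in other lists here. Zbtb16 rose from 0.536 ± 0.254 to 42.3 ± 2.26 RPM (4.83 ± 0.11), Fkbp5, the receptor cochaperone, from 65.6 ± 1.43 to 186 ± 1.55 RPM (1.49 ± 0.03) and Tsc22d3 (GILZ) from 11.3 ± 0.967 to 47.2 ± 1.11 RPM (1.97 ± 0.05). Of 18 circadian clock genes 13 rose, 6 at least 2-fold, and 2 fell (median 0.67). Npas2 rose from 6.82 ± 0.855 to 30.2 ± 3.02 RPM (2.00 ± 0.14) and Per2 from 7.88 ± 0.488 to 21.9 ± 1.25 RPM (1.37 ± 0.07), while the output gene Hlf fell (-0.78 ± 0.13). The labels give no harvest hours.

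Respiratory chain and ribosomal protein genes showed no 2-fold change, while some genes of glycolysis and hypoxia did. Of 23 tested glycolysis and hypoxia genes 14 rose, 5 at least 2-fold, and 6 fell, none 2-fold, with a median of 0.20 that became -0.0436 without the TMM factors. Vegfa rose from 56.5 ± 1.16 to 190.0 ± 9.37 RPM (1.73 ± 0.03). Epas1, which encodes the hypoxia factor HIF-2 alpha and is not in that list, had 2.15, 2.72 and 2.4 RPM in the day 1 libraries and 998, 983 and 994 RPM in the day 21 libraries (8.18 ± 0.11, adjusted p = 2.88e-26), without overlap. Of 27 respiratory chain genes 16 fell and 3 rose, none by 2-fold (median -0.19), and of 30 ribosomal protein genes 14 fell and 8 rose, again none 2-fold (median -0.13). Reads of ribosomal and glycolytic genes may be shared with processed pseudogenes. Of 38 other Hox genes 26 were tested, 3 rose, none 2-fold, and 10 fell, 2 at least 2-fold (median -0.22). The 2 were Hoxb6 (-1.18 ± 0.12) and Hoxb3 (-1.16 ± 0.09), members of the same cluster as Hoxb13.

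The genes that fell most came largely from outside the lists. Dlk1, an imprinted gene for a transmembrane inhibitor of fat cell formation (ENSMUSG00000040856, chromosome 12, 109452823 to 109463336, plus strand), had 201, 214 and 219.6 RPM in the day 1 libraries and 1.37, 1.25 and 1.25 RPM in the day 21 libraries (-6.54 ± 0.11, adjusted p = 3.67e-24). Rab3b, a GTPase of regulated secretion, had 107, 112 and 106 RPM in the day 1 libraries and 0.0759, 0.39 and 0.418 RPM in the day 21 libraries (-6.41 ± 0.13, adjusted p = 1.28e-22). Ptn, the heparin-binding growth factor pleiotrophin, had 364, 381 and 412 RPM in the day 1 libraries and 6.68, 4.68 and 3.62 RPM in the day 21 libraries (-6.04 ± 0.11, adjusted p = 1.45e-23). The days were far apart in all 3, which follows from picking the genes that fell most. Several others are known from neurons: Nptx1 (neuronal pentraxin 1) fell from 47.5 ± 4.61 to 0.0977 ± 0.036 RPM (-5.46 ± 0.13), Gap43 of growth cones from 83.2 ± 3.2 to 0.941 ± 0.107 RPM (-5.44 ± 0.15), Map2 of dendrites from 213 ± 2.95 to 5.49 ± 0.774 RPM (-5.05 ± 0.07) and the choline carrier gene Slc5a7 from 72 ± 0.961 to 1.27 ± 0.371 RPM (-5.02 ± 0.12). Of 10 neural markers 5 were tested and 4 fell, all at least 2-fold. Their summed level was 417 to 430 RPM at day 1 and 47.1 to 55.8 at day 21, and Stmn2 alone fell from 171 ± 1.35 to 40.3 ± 4.12 RPM (-2.06 ± 0.13). Nes (nestin), an intermediate filament gene of progenitor cells, fell from 422 ± 8.59 to 10.5 ± 0.494 RPM (-5.21 ± 0.04). Car3, a carbonic anhydrase, fell from 90.4 ± 4.3 to 0.967 ± 0.479 RPM (-5.57 ± 0.14), and Kctd12 from 199 ± 4.48 to 4.14 ± 0.577 RPM (-5.29 ± 0.09). At the top of the list, beside the genes above, Lgi2, a secreted leucine-rich repeat protein gene, rose from 0.961 ± 0.0351 to 1049 ± 5.62 RPM (9.06 ± 0.05), and Spon1 (F-spondin) from 0.244 ± 0.0482 to 313 ± 3.19 RPM (7.98 ± 0.09).

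Marker genes of fibroblasts were present at both days, with a summed level of the 10 genes of 21397 to 21658 RPM at day 1 and 43869 to 46259.9 RPM at day 21. Of them 7 rose and 3 fell. Pdgfra rose from 231 ± 6.29 to 1134 ± 12.9 RPM (2.29 ± 0.03), and Thy1 and Vim fell from 108 ± 4.91 to 24 ± 0.587 RPM (-2.13 ± 0.04) and from 5193 ± 26.7 to 2156 ± 31 RPM (-1.27 ± 0.02). Of 7 pericyte markers 5 rose, 4 at least 2-fold, and 2 fell, both at least 2-fold. Rgs5, Kcnj8, Abcc9, Pdgfrb and Notch3 rose, with log2 fold changes of at most 2.00. Cspg4 fell from 101 ± 1.15 to 2.45 ± 1.3 RPM (-4.95 ± 0.15) and Mcam from 25.9 ± 0.417 to 1.4 ± 0.423 RPM (-3.51 ± 0.10). Pericyte markers summed to 323 to 328 RPM at day 1 and 467 to 495 RPM at day 21. Their median of 1.10 became -1.58 with a filter of 5 RPM. Mesothelial markers fell in 7 of 9 cases (4 at least 2-fold) and 1 rose (median -0.96), with a summed level of 210 to 223 RPM at day 1 and 80.0 to 94.7 at day 21. Krt18 fell from 18.3 ± 1.24 to 0.372 ± 0.201 RPM (-3.83 ± 0.09). Markers of further lineages were summed in the same way. Those of fat cells stood at 53.5 to 61.1 RPM at day 1 and 360 to 367 RPM at day 21, nearly all of it Fabp4, and those of skeletal muscle at 7.13 to 9.37 and 27.5 to 28.4 RPM, nearly all of it Des. Both are the genes that rose above, and the muscle regulator Myod1 had no read in HOXB13 libraries. The endothelial sum was 6.62 to 7.25 RPM at day 1 and 3.64 to 5.69 at day 21, with Tek and Erg falling (-0.88 ± 0.15 and -0.66 ± 0.13) and the defining gene Cdh5 at 0.0604 and 0.318 RPM. The chondrocyte sum was 2.15 to 3.63 RPM at day 1 and 0.234 to 0.455 at day 21, Acan and Col10a1 falling (-0.79 ± 0.14 and -1.43 ± 0.14) and Chad without a read. The epithelial sum was 0.307 to 0.815 and 0.626 to 1.17 RPM. Within these low sums Cdh1 rose by 0.46 ± 0.13, a change that rests on few reads. Cdh1 could reach the filter only with vector libraries, where the sums were 26.9 to 28.6 and 64.8 to 68.1 RPM.

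The change in HOXB13 cells was then set against that in vector cells with an interaction contrast, HOXB13 minus vector. It passed for 9220 of 13516 genes (68.2%), 4941 higher and 4279 lower. At least 2-fold differences were found for 1064 higher (7.87% of tested genes) and 1288 lower (9.53%). Interaction counts of list members below are to be read against these counts. This split, too, depends on scaling. Without the TMM factors 757 genes were at least 2-fold higher in the interaction and 1823 lower. Of the 1778 genes at least 2-fold higher in HOXB13 cells, 1056 (59.4%) were also at least 2-fold higher in vector cells, which is 48.6% of the vector genes of that kind. Of the 1418 lower, 779 (54.9%) were also lower in vector cells, 47.9% of theirs. Only 33 were higher in HOXB13 and lower in vector cells, and 56 lower in HOXB13 and higher in vector cells.

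**Figure D4:**
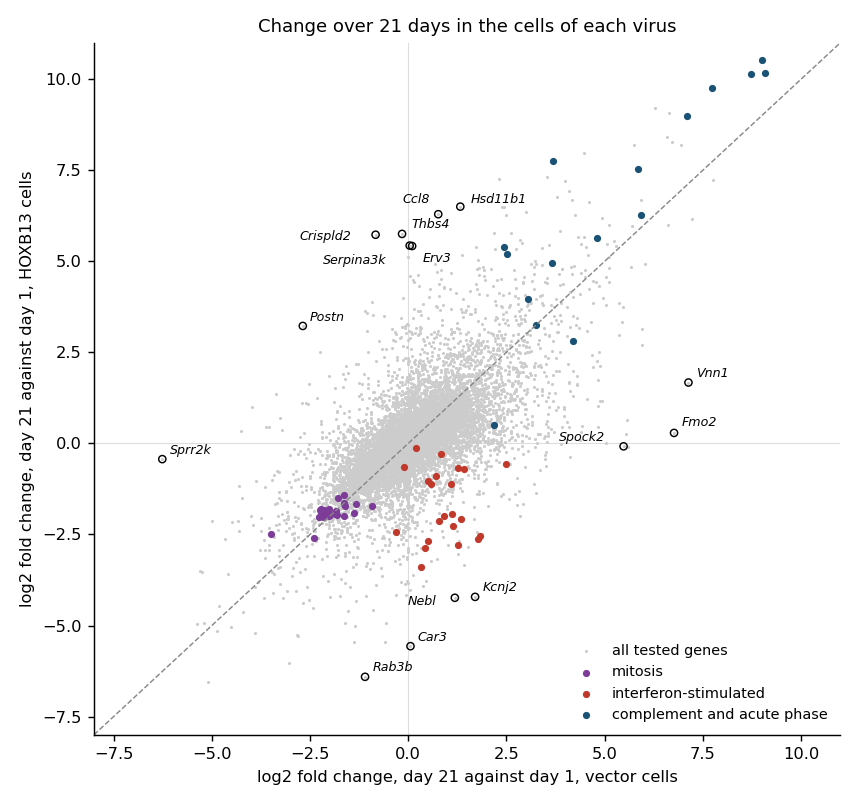
Log2 fold change from day 1 to day 21 of every tested gene in vector cells (horizontal) and HOXB13 cells (vertical); the dashed line marks equal change. Mitosis genes lie near that line, 22 of 22 tested interferon-stimulated genes lie below it, and the circled genes are 8 with a high and 7 with a low interaction.

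Proliferation genes fell in both. Over the 28 mitosis genes the median change was -1.93 in vector and -1.88 in HOXB13 cells, and 12 were called higher and 7 lower in the interaction, none by 2-fold. Interferon-stimulated genes differed in a single direction, since all 22 tested were called lower in the interaction, 20 at least 2-fold, with a median of -2.91, and the vector median over the days was 0.87. The vector libraries of day 21 were uneven in these genes, with medians over the list of 3.74, 4.48 and 3.64 on the log2(RPM + 1) scale. Without the highest of them all 22 were still called lower, 19 at least 2-fold, with a median of -2.43. For Ifit1 the interaction was -3.70 ± 0.49, adjusted p = 6.02e-07. Mesothelial markers were also called lower in all 9 cases, 7 at least 2-fold. Msln, mesothelin, went from 59.6 ± 5.35 to 668 ± 12.3 RPM in vector cells and from 23.6 ± 0.933 to 19.3 ± 5.43 RPM in HOXB13 cells (-3.78 ± 0.15, adjusted p = 1.98e-16).

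Most collagen and acute-phase genes were higher in the interaction. Of 23 collagens 17 were called higher, 14 at least 2-fold, and 4 lower, 1 at least 2-fold, beside a median change of -0.10 in vector and 0.66 in HOXB13 cells. Of 16 acute-phase genes 13 were called higher, 10 at least 2-fold, and 2 lower, both at least 2-fold, beside medians of 4.50 and 5.96. The listed acute-phase genes summed to 97.6 to 106 RPM at day 1 and 28717 to 30080 RPM at day 21 in HOXB13 cells. In vector cells the sums were 170 to 183 and 25460 to 27526 RPM. Their higher interaction thus went with a lower sum at day 1 and a similar sum at day 21. Bone matrix genes were split, with 7 of 17 called higher, 1 at least 2-fold, and 8 lower, 6 at least 2-fold. Of 19 glucocorticoid response genes 5 were called higher, 1 at least 2-fold, and 12 lower, 6 at least 2-fold. The median change of these 19 was 2.75 in vector and 1.49 in HOXB13 cells. Postn fell from 1286 ± 47.1 to 201 ± 30.6 RPM in vector cells and rose in HOXB13 cells, a difference of 5.91 ± 0.09, adjusted p = 1.02e-23. Crispld2, a secreted cysteine-rich protein gene, fell from 258 ± 2.69 to 145 ± 5.12 RPM in vector cells and had 30.8, 29.1 and 28.4 RPM at day 1 and 1597, 1593 and 1641 RPM at day 21 in HOXB13 cells (6.56 ± 0.04, adjusted p = 1.59e-30). Thbs4, thrombospondin 4, had 4.36, 4.41 and 4.73 RPM at day 1 and 316, 277 and 293 RPM at day 21 in HOXB13 cells and stayed below 1 RPM in vector cells (5.91 ± 0.14, adjusted p = 1.15e-20). In none of these genes did the HOXB13 days overlap. Ccl8, a monocyte attractant, had 0.116, 0 and 0.0615 RPM at day 1 and 81.3, 82.2 and 82.1 RPM at day 21 (5.53 ± 0.16, adjusted p = 7.49e-19), and Hsd11b1, which regenerates active glucocorticoid, had 0.0582, 0 and 0 RPM at day 1 and 85.3, 87.7 and 101 RPM at day 21 (5.17 ± 0.18, adjusted p = 1.42e-17). Their day 1 levels rest on 3 reads or fewer, and by edgeR the change in HOXB13 cells was 10.16 and 11.59. Serpina3k and Erv3, an endogenous retroviral gene, likewise rose from 0.0604 ± 0.0583 to 44.9 ± 4.92 RPM and from 0.0637 ± 0.0649 to 44.4 ± 1.19 RPM in HOXB13 cells and stayed near 0 in vector cells. Sprr2k, of the cornified envelope, fell from 95.1 ± 3.13 to 0.26 ± 0.159 RPM in vector cells and from 0.41 ± 0.0427 to 0.0464 ± 0.0804 RPM in HOXB13 cells.

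Other genes rose in vector cells and stayed low in HOXB13 cells. Fmo2, a flavin monooxygenase, went from 0.246 ± 0.152 to 134 ± 4.21 RPM in vector cells and stood at 0.184 ± 0.01 RPM at day 1 and 0.45 ± 0.151 at day 21 in HOXB13 cells, a difference of -6.48 ± 0.17, adjusted p = 1.06e-19. Vnn1, a pantetheinase, rose from 1.09 ± 0.187 to 292 ± 4.85 RPM in vector and from 0.578 ± 0.156 to 4.04 ± 0.64 RPM in HOXB13 cells (-5.46 ± 0.16, adjusted p = 8.66e-19), and Spock2, a matrix proteoglycan gene, had no such rise in HOXB13 cells (-5.56 ± 0.16, adjusted p = 9.54e-19). Kcnj2, an inward rectifier potassium channel, and Nebl, an actin-binding protein gene, fell from 111 ± 1.25 to 5.02 ± 0.231 RPM and from 20.2 ± 1.04 to 0.124 ± 0.0422 RPM in HOXB13 cells and rose in vector cells (-5.91 ± 0.14 and -5.42 ± 0.19). Of the bone genes, Alpl and Spp1 rose less in HOXB13 than in vector cells (-2.11 ± 0.14, adjusted p = 2.47e-12 and -0.96 ± 0.05, adjusted p = 4.07e-14), and Runx2 fell less (0.47 ± 0.08, adjusted p = 2.37e-05). Of the 26 tested Hox genes 22 were called higher in the interaction, 14 at least 2-fold, beside a median change of -1.21 in vector and -0.22 in HOXB13 cells. A higher interaction was not a higher level here. The listed Hox genes summed to 92.2 to 92.9 RPM at day 1 and 59.4 to 65.3 RPM at day 21 in HOXB13 cells. In vector cells the sums were 344 to 356 and 132 to 142 RPM.

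**Figure D5:**
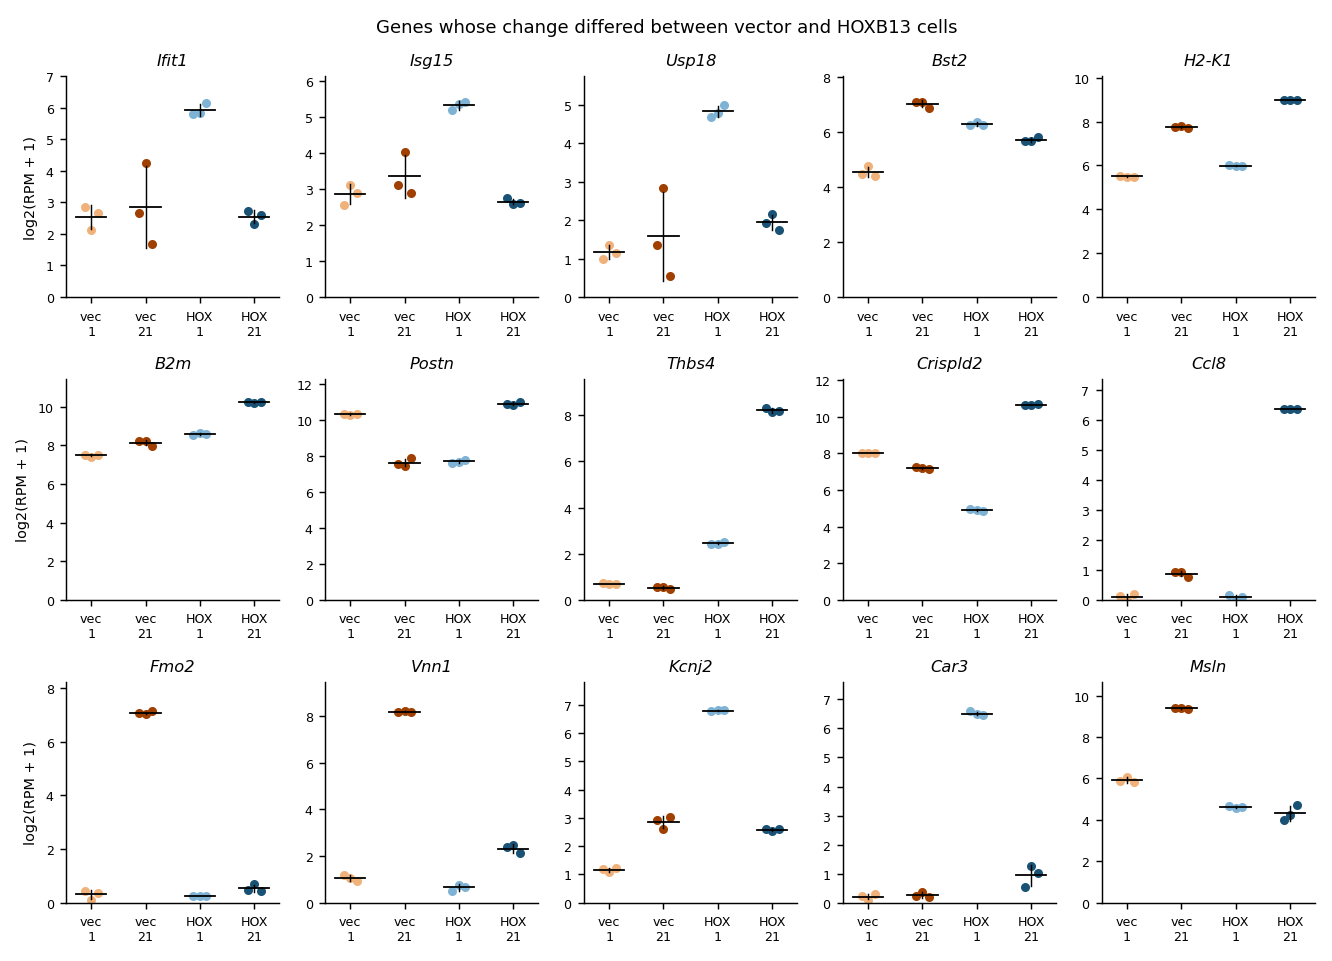
Levels of 15 genes whose change differed between the viruses, as log2(RPM + 1), in each library of vector (vec) and HOXB13 (HOX) cells at day 1 and day 21; bars are the mean and its SD over 3 libraries. Ifit1, Isg15 and Usp18 start high and end low in HOXB13 cells, Postn moves in opposite directions, and Fmo2 and Vnn1 rise mainly in vector cells.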

How the data were processed

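Messenger RNA of 12 wells was sequenced with a strand-specific NuGEN kit, per the labels' protocols. The deposited signal values are the authors' RPM, gene reads scaled to 1000000 with TMM factors, and every value was a whole multiple of 1 read within 0.01, so that reads could be recovered. Per the submitters' processing notes, edgeR, DESeq2, HTSeq 0.6.1 and STAR 2.7.2a were used. The notes name the human build GRCh38, although the identifiers are mouse, and no mouse build is stated. Names and coordinates come from GENCODE M21 (GRCm38), which holds 55480 of the 55573 identifiers, and promoters from RefSeq.

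Genes with at least 1 RPM in 3 libraries were tested with limma 3.58.1 (R 4.3.3, eBayes with trend, two-sided) on log2(RPM + 1), with 1 mean per group over all 12 libraries and p-values adjusted by Benjamini and Hochberg over all 13516 genes at a threshold of 0.05. The interaction came from the same fit. Adjusted p-values are limma's unless edgeR is named. The rule named the 12 highest and 12 lowest genes, the 8 highest and 8 lowest in the interaction (at least 5 RPM in the highest group, with predicted genes and pseudogenes left out), 13 fixed genes and list members, of which some are not reported here. The members, the 32 gene lists, the 12 marker lists and the rule were chosen with earlier results of these data known. Alternatives were pseudocounts of 0.25 and 4, no filter, a filter of 5 RPM, median of ratios, values without the TMM factors, quantile values, DESeq2 1.42.0 or edgeR 4.0.16 run on recovered reads, a block for replicate number, the 6 HOXB13 libraries alone, and leaving out each library. Reads of amplified libraries are not independent molecules, so the read limits given cover counting error only.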

Additional observations from a re-analysis of the deposited data

Results flagged for a closer look

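The change over 21 days differed between HOXB13 and vector cells for 9220 genes by the test of the difference itself. Genes with large differences (HOXB13 minus vector, log2 scale) were Crispld2 (6.56), Thbs4 (5.91), Postn (5.91), Sprr2k (5.83), Ccl8 (5.53), Serpina3k (5.39), Erv3 (5.32) and Hsd11b1 (5.17), and on the other side Fmo2 (-6.48), Kcnj2 (-5.91), Car3 (-5.62), Spock2 (-5.56), Vnn1 (-5.46), Nebl (-5.42) and Rab3b (-5.31). The reads of Serpina3k may be shared with other members of its family. Sprr2k stood below 1 RPM at both days in HOXB13 cells, so its difference reflects its fall in vector cells.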

How the results depend on the processing

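The counts of genes called and at least 2-fold higher, in the day comparison and in the interaction, stayed within 1.5 times the values above under each alternative run. The balance of the interaction still moved without the TMM factors, to 757 genes at least 2-fold higher and 1823 lower. With a pseudocount of 4, which shrinks low genes, 939 genes in place of 1418 were at least 2-fold lower, and 801 in place of 1288 were at least 2-fold lower in the interaction. On the recovered reads 2117 genes were at least 2-fold higher and 1812 lower by edgeR, and 2205 and 1710 by DESeq2. With the replicate block 10810 genes were called in place of 10830. The residuals of equal-numbered libraries did not move together (r from -0.0839 to -0.0217), so no shared effect of the replicate number was seen. With 3 libraries per group this cannot decide whether the numbers pair the samples. List medians changed sign for cartilage (2.57), BMP and TGF-beta genes (0.11) and pericyte markers (-1.58) with a filter of 5 RPM, and without the TMM factors for cell cycle inhibitors (-0.15) and glycolysis (-0.0436). Quantile normalization turned the sign of the proteoglycan median (-0.0185), of Col1a1 (-0.58) and of Timp3 (-0.0057). Some medians kept their sign but moved by more than 1.5 times. With a pseudocount of 4 these included chemokines (1.18), adipocyte genes (1.09), antigen presentation (0.85), interferon-stimulated genes (-1.16) and mesothelial markers (-0.52). Without the TMM factors they included the IGF axis (0.40), osteoblast transcription factors (-0.61), respiratory chain (-0.45) and ribosomal protein genes (-0.37). By edgeR they included endothelial markers (-1.38) and BMP and TGF-beta genes (-0.18), and with a filter of 5 RPM neural markers (-3.32). The bone matrix median reached 1.34 by DESeq2 and the collagen median 0.30 under quantile normalization. Medians within 0.25 of 0 for Hox and Wnt genes ran from -0.47 to -0.09 and from -0.22 to -0.02. The cartilage median was -2.06 by edgeR and -0.25 with a pseudocount of 4. The filter leaves fewer list members, and for the other changes the cause was not tested. No other called gene named above changed sign under these alternatives. Levels below a few RPM rest on few reads per library.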
